A study of Mus musculus with 4 samples.

Results

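The cullin adaptors and muscle ubiquitin ligases are the genes whose annotated symbol begins with Asb, Klhl, Kbtbd or Cul followed by a digit, together with Trim63, Trim54, Trim55 and Fbxo32. They were picked by symbol alone, among transcript clusters (array probe sets summarised per gene) annotated to a single gene. The rule takes no measured difference, but it was written with earlier results of these data known. The rule found 52 genes of 14860, in 54 clusters: 16 Asb genes, 21 Klhl genes, 5 Kbtbd genes, 8 cullins, Trim54 and Fbxo32. A RefSeq gene table lists 76 protein-coding genes of these names. The other 24, among them Trim63, Trim55, Asb2, Klhl40 and Klhl41, were not analysed here, and 3 clusters that pair such a symbol with another gene were left out.

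RNA came from C2C12, a clonal line of mouse myoblasts that fuse into myotubes when serum is withdrawn. Cells carried a control siRNA or an siRNA against the long noncoding RNA MUNC (siMUNC), and each was collected either while growing in high-glucose medium with 10% fetal bovine serum or, once 80% confluent, after 3 days in medium with 2% horse serum. This makes 4 groups, proliferating and differentiating cells with either siRNA, with 1 array each. There are no replicates, so no difference below has an error, a p-value or a replicate check. Precision is limited by this number of arrays. MUNC itself was not analysed here, so the depth of the knockdown is unknown.

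Values are the deposited log2 intensities, and a difference is the log2 difference between 2 arrays. "Past 2-fold" means an absolute log2 difference of at least 1. A gene is called dim where it read below 8.50 on every array. That level is the median, over all genes, of the mean of the 4 arrays. Of the 52 members 21 were dim on every array (40.4%), beside 46.4% of all genes. The other 31 were not, and 26 read at or above 8.50 on all 4 arrays. Levels of different genes are not compared, because probes differ in brightness.

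The identity of the cells was checked with 10 muscle markers. All 10 read at or above 8.50 in both differentiating cultures and 6 of 10 in both proliferating ones. Their median difference on differentiation was 3.71 in control and 2.44 in siMUNC cells. In each, 6 of 10 were past 2-fold higher, beside 3.53% (control) and 2.01% (siMUNC) of all genes. With siMUNC, 4 of 10 were past 2-fold lower in differentiating cells, beside 1.44% of all genes. Myog (-1.64) and Myod1 (-1.04) were among these 4. In all, 8 of 10 were below 0, and Myf5 (0.62) and Cdh15 (0.12) were above it. With siMUNC in proliferating cells 5 of 10 were below 0 and 5 above, among the latter Myf5 (0.43). Past 2-fold lower were 2 of 10, beside 0.35% of all genes: Myl1 (-1.05) and Mymk, which lay at the threshold. Both came within 2-fold when the arrays were centred on their medians or an offset of 50 was added on the linear scale. Summed on the linear scale, the 10 markers came to 18991 (control) and 18263 (siMUNC) before differentiation, and to 72388 (control) and 45312 (siMUNC) after it. The 8 fibroblast markers summed to 6847 and 6487 before and 18153 and 17485 after, in the same order, with Lum, Dpt and Dcn past 2-fold higher on differentiation with either siRNA (Lum in siMUNC cells, 1.72, came to 0.96 with the offset). Such sums weigh the brightest probes most, here Dcn (13.38 in control and 13.00 in siMUNC differentiating cells). With siMUNC in differentiating cells 6 of the 8 were below 0 and 2 above, with a median of -0.41, Lum at -3.55 and Cd34 at 1.08. Of 7 measured macrophage markers, which this line should lack, 5 were dim on every array, a weak check since 46.4% of all genes were. Among the 5 dim were Adgre1, Csf1r and Ptprc. Cd68 (8.10 to 8.77) and Cd14 (7.63 to 8.67) were not, and Cd14 was lower in differentiating control cells by a log2 difference of -1.03, which came to -0.88 with the offset. In such bulk samples fewer differentiated cells and less RNA per cell cannot be told apart, and the part of the muscle and fibroblast markers in the differences below was not tested.

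Ubiquitin ligases of the cullin-RING class are built on a cullin, a long scaffold that holds a RING protein at one end and a substrate adaptor at the other. Cul3 takes BTB proteins, such as the kelch-repeat proteins of the Klhl and Kbtbd families. Cul5 takes SOCS-box proteins, such as the ankyrin-repeat Asb family, through elongins B and C, and Cul1 takes F-box proteins, such as Fbxo32, through Skp1. Striated muscle expresses many of these adaptors, several of which act on sarcomere proteins. The MuRF proteins (Trim63, Trim55 and Trim54) are single-chain RING ligases of the sarcomere, and Trim63 and Fbxo32 (MuRF1 and atrogin-1) are best known for their induction in muscle wasting.

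The members that differed past 2-fold between differentiating and proliferating cells raise the question of what their promoters share. Windows from 250 bases before to 50 bases after the annotated start were taken from RefSeq (build GRCm38.p6) for 46 of the 52 members, among them 7 of the 9 members past 2-fold in any comparison. Klhl24 and Fbxo32 had no entry. The sequences given are those of 4 members that were higher in differentiating control cells and of Kbtbd8, which was lower, all read 5′ to 3′ along the gene. Capitals mark the E-box motif CANNTG, the core that basic helix-loop-helix factors such as MyoD bind, on either strand, and a window in lower case throughout holds no match.
Klhl31 (chr9:77636482-77636781, plus strand): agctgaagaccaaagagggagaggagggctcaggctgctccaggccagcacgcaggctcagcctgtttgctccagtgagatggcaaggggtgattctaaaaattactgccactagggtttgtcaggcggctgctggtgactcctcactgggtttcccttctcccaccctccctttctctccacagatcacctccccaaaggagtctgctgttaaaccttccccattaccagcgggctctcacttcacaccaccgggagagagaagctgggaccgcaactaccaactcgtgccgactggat
Trim54 (chr5:31116362-31116661, plus strand): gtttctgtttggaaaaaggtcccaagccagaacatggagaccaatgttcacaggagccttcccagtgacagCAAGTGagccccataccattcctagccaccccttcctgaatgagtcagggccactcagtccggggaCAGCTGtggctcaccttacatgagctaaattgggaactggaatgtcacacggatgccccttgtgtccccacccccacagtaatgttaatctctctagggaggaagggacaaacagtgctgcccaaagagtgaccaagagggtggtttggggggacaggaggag
Asb15 (chr6:24527894-24528193, plus strand): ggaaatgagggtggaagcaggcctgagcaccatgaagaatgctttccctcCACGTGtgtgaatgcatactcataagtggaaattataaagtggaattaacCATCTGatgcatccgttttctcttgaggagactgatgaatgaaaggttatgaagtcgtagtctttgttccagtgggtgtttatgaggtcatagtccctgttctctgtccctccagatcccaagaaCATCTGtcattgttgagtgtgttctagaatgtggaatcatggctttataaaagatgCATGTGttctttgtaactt
Klhl5 (chr5:65107318-65107617, plus strand): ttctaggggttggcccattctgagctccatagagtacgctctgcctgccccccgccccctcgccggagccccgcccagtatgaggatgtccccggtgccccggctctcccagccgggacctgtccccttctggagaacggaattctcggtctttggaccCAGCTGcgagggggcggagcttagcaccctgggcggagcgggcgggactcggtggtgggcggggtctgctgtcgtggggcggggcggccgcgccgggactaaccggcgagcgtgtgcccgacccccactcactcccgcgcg
Kbtbd8 (chr6:95117630-95117929, plus strand): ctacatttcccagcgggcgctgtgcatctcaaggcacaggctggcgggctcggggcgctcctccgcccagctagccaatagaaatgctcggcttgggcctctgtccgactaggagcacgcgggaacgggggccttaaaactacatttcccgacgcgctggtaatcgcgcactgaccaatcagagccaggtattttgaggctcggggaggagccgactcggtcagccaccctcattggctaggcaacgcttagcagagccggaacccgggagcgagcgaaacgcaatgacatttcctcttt

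CANNTG was present in 23756 of all 32851 windows (72.3%), in 37 of 63 windows of members (58.7%) and in 9 of 11 windows of the members past 2-fold higher in differentiating control cells (81.8%). CAGCTG, a form of CANNTG, was present in 16.3% of all windows, 17.5% of the windows of members and 5 of those 11 (45.5%). CACCTG, another form, was present in 20.2%, 15.9% and 18.2%. The 11 windows belong to 6 genes, 5 of them to alternative starts of Klhl13, of which some overlap, so they are not independent. The CAGCTG of Trim54 lies at position -113 relative to the start, counted without a zero, and that of Klhl5 at -91. The windows of Klhl31 and Kbtbd8 hold no CANNTG. The MEF2 motif (10 bases, both strands) was present in 3.19% of all windows, in 5 of 63 windows of members (7.94%) and in 0 of 11. A match is a description of the letters and not a binding site, and a window without one says nothing about a factor.

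The first comparison asks which of these ligase genes differ between differentiating and proliferating cells with the control siRNA. The BTB-kelch adaptors Klhl31, Klhl13, Klhl24 and Klhl5 were higher in differentiating cells, by 4.95-, 3.15-, 2.76- and 2.27-fold. The F-box gene Fbxo32 was 3.09-fold and the RING gene Trim54 3.04-fold higher. Of the SOCS-box adaptors, Asb15 was 2.30-fold and Asb9 2.03-fold higher, both from dim values. Kbtbd8 was 2.13-fold lower. The 8 members past 2-fold higher are 15.4% of the 52, against 3.53% of all 14860 genes, and the 1 member past 2-fold lower stands against 4.08% of all genes. The median difference of the 52 members was 0.14, beside 0.05 over all genes, and 35 of 52 were above 0 (67.3%), beside 55.9% of all genes.

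**Figure D1:**
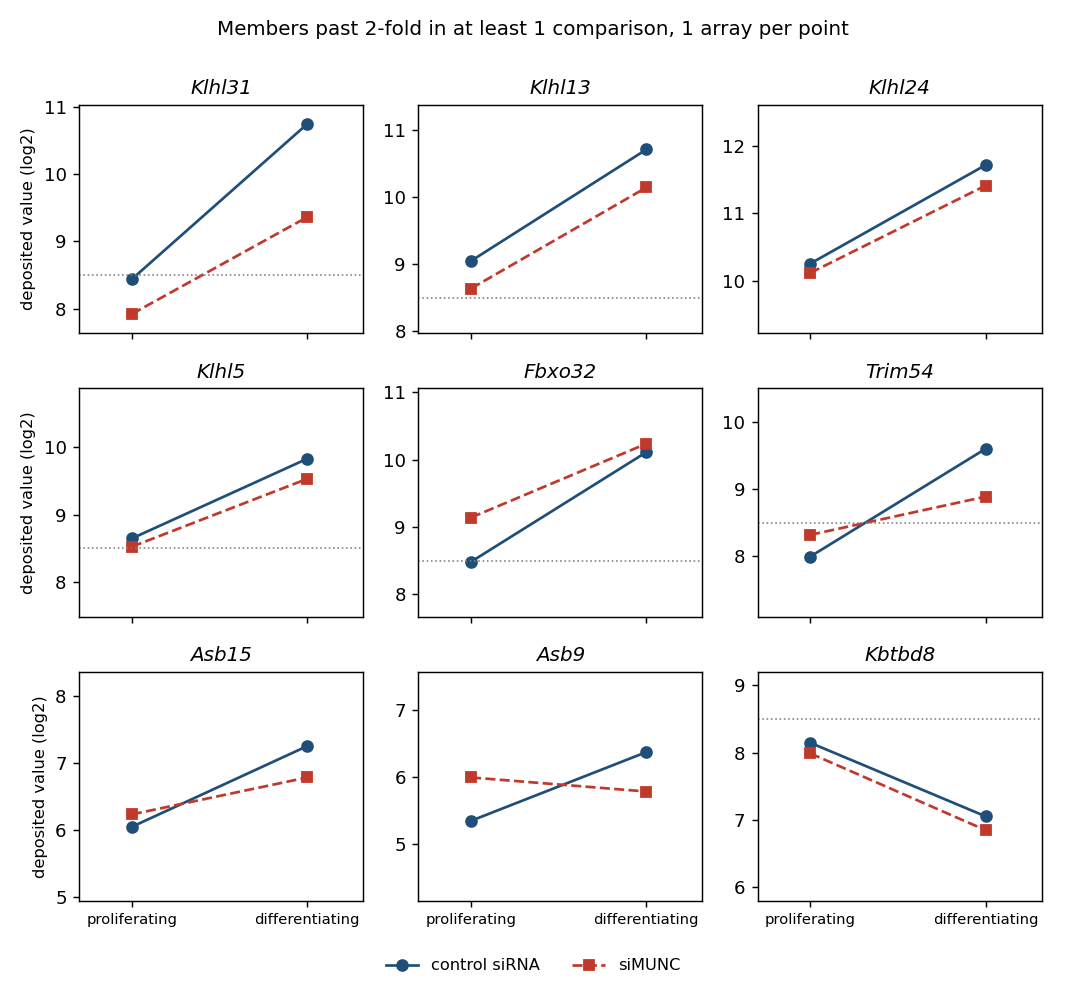
Deposited log2 value (y axis, the same span in each panel) of the 9 members past 2-fold in at least 1 comparison, in proliferating and differentiating cells with control siRNA (circles, solid line) or siMUNC (squares, dashed line), 1 array per point. The dotted line marks 8.50, the level below which a value counts as dim, and lies outside the panels of Klhl24, Asb15 and Asb9; Klhl31 read 10.75 in control and 9.36 in siMUNC differentiating cells.

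Klhl31, a BTB-kelch protein of striated muscle whose loss in mice causes a myopathy, gave the widest difference of the 52 (transcript cluster 6990662). It read 8.44 in control proliferating, 7.92 in siMUNC proliferating, 10.75 in control differentiating and 9.36 in siMUNC differentiating cells. Both differentiating arrays were above both proliferating ones, and the siMUNC array was the lower in each state. The difference on differentiation was 2.31 in control and 1.44 (2.71-fold) in siMUNC cells. Klhl31 has another cluster (6990663), which read 7.87, 7.30, 10.47 and 8.82 on the same arrays and gave differences of 2.59 and 1.53. The pair of clusters thus ordered the 4 arrays the same way.

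Klhl13, which in human cells works with Klhl9 and Cul3 to remove Aurora B from mitotic chromosomes, read 9.05 and 8.64 in control and siMUNC proliferating cells and 10.71 and 10.14 in control and siMUNC differentiating cells. It was higher on differentiation by 1.66 in control cells and 2.83-fold in siMUNC cells. Its partner Klhl9 read between 9.83 and 10.15 on the 4 arrays and differed by 0.25 and 0.06. Klhl24, whose human counterpart controls keratin turnover in skin, read 10.25 and 10.11 in control and siMUNC proliferating cells against 11.72 and 11.41 in the differentiating ones, differences of 1.47 and 1.30 (2.76- and 2.46-fold). Klhl5, a further BTB-kelch protein, read 8.65 and 8.52 in control and siMUNC proliferating cells against 9.83 and 9.53, differences of 1.19 and 1.01. The siMUNC difference of Klhl5 came to 0.96 when the arrays were centred on their medians. In these 3 genes the siMUNC array was the lower in each state, by at most 0.57 (Klhl13, differentiating).

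Fbxo32 (atrogin-1) read 8.48 in control proliferating, 9.14 in siMUNC proliferating, 10.11 in control differentiating and 10.24 in siMUNC differentiating cells. Unlike the kelch genes above, the siMUNC array was the higher in each state. The difference on differentiation was 1.63 in control and 1.10 (2.14-fold) in siMUNC cells. In the gene table the next protein-coding gene to Fbxo32 is Klhl38, a member known from muscle, which was dim throughout (5.87 and 6.31 in proliferating, 6.31 and 6.45 in differentiating control and siMUNC cells). Trim54 (MuRF3), which binds microtubules and sits at the Z-disc, read 8.00 and 8.32 in control and siMUNC proliferating cells and 9.60 and 8.89 in control and siMUNC differentiating cells. Its difference on differentiation was 1.60 in control and 0.57 (1.48-fold) in siMUNC cells. The order of the siRNAs turned between the states, with siMUNC higher in proliferating and lower in differentiating cells.

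Among the Asb adaptors, Asb15, a gene of skeletal muscle, read 6.05 and 6.23 in control and siMUNC proliferating cells and 7.25 and 6.78 in the differentiating ones, differences of 1.20 and 0.55. Its control difference dropped below 2-fold, to 0.80, with an offset of 50 added on the linear scale, and to 0.90 with a floor at the 25th percentile. Asb9, whose human product binds creatine kinase, read 5.35 and 5.99 in proliferating control and siMUNC cells and 6.37 and 5.78 in the differentiating ones. Its control difference of 1.02 came to 0.55 with the offset, 0.06 with the floor and 0.94 under cyclic loess. Asb9 lay under the 25th percentile on every array, so its floor value is only the difference between the floors of the arrays. Both genes were dim, as were 21 members in all, of which these 2 were past 2-fold higher, against 1.67% of all dim genes, and Kbtbd8 past 2-fold lower, against 1.31%. The other 14 Asb genes lay between -0.33 (Asb17) and 0.89 (Asb16) in control cells, and the family's median was 0.19 in control and 0.06 in siMUNC cells. Asb5 and Asb8, adaptors known from muscle, were not dim. Asb5 differed by 0.60 in control and 0.11 in siMUNC cells, and Asb8 by 0.54 and 0.06.

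Kbtbd8, a Cul3 adaptor that in frog and human cells acts in neural crest formation, was the only member past 2-fold lower on differentiation. It read 8.15 and 7.99 in control and siMUNC proliferating cells and 7.05 and 6.85 in the differentiating ones. The differences of -1.09 and -1.14 nearly coincide, and both differentiating arrays were below both proliferating ones. It was dim on every array, and an offset of 50 took the differences to -0.87 and -0.88. Among genes with at least 1 of the compared arrays at or above 8.50, 0 of 31 members were past 2-fold lower, against 6.58% of such genes in control and 1.34% in siMUNC cells. The other 4 Kbtbd genes lay between -0.40 (Kbtbd4) and 0.12 (Kbtbd3) in control cells.

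None of the 8 cullin scaffolds was past 2-fold in any comparison. Over all genes 8.77% were past 2-fold in any of the 4 pairwise comparisons, so this count does not set the cullins apart. Their differences on differentiation ran from -0.42 to 0.57 in control and from -0.17 to 0.21 in siMUNC cells. Cul3, the scaffold of the BTB adaptors, read 12.06 and 12.01 in control and siMUNC proliferating cells and 11.97 and 11.92 in the differentiating ones, a span of 0.15. Cul5, the scaffold of the Asb proteins, read 10.69, 10.65, 10.92 and 10.61 in the same order, and Cul2, which shares the elongins, 10.43, 10.27, 10.21 and 10.21. Both proliferating arrays were above both differentiating ones for Cul3 and Cul2, by small margins, while for Cul5 the states overlapped. Cul1, the scaffold of the F-box proteins, read 11.43, 11.15, 11.73 and 11.30 in that order too. Both siMUNC arrays of Cul1 were below both control arrays. Cul4a and Cul4b, paralogous scaffolds that take Ddb1, differed on differentiation by 0.34 and -0.42 in control cells and by 0.21 and -0.07 in siMUNC cells. Cul7, which pairs with Fbxw8, spanned 0.27 over the 4 arrays. Cul9, a p53-binding cullin, was dim and read lowest in control proliferating cells (7.03, against 7.50 to 7.67 on the other 3 arrays).

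**Figure D2:**
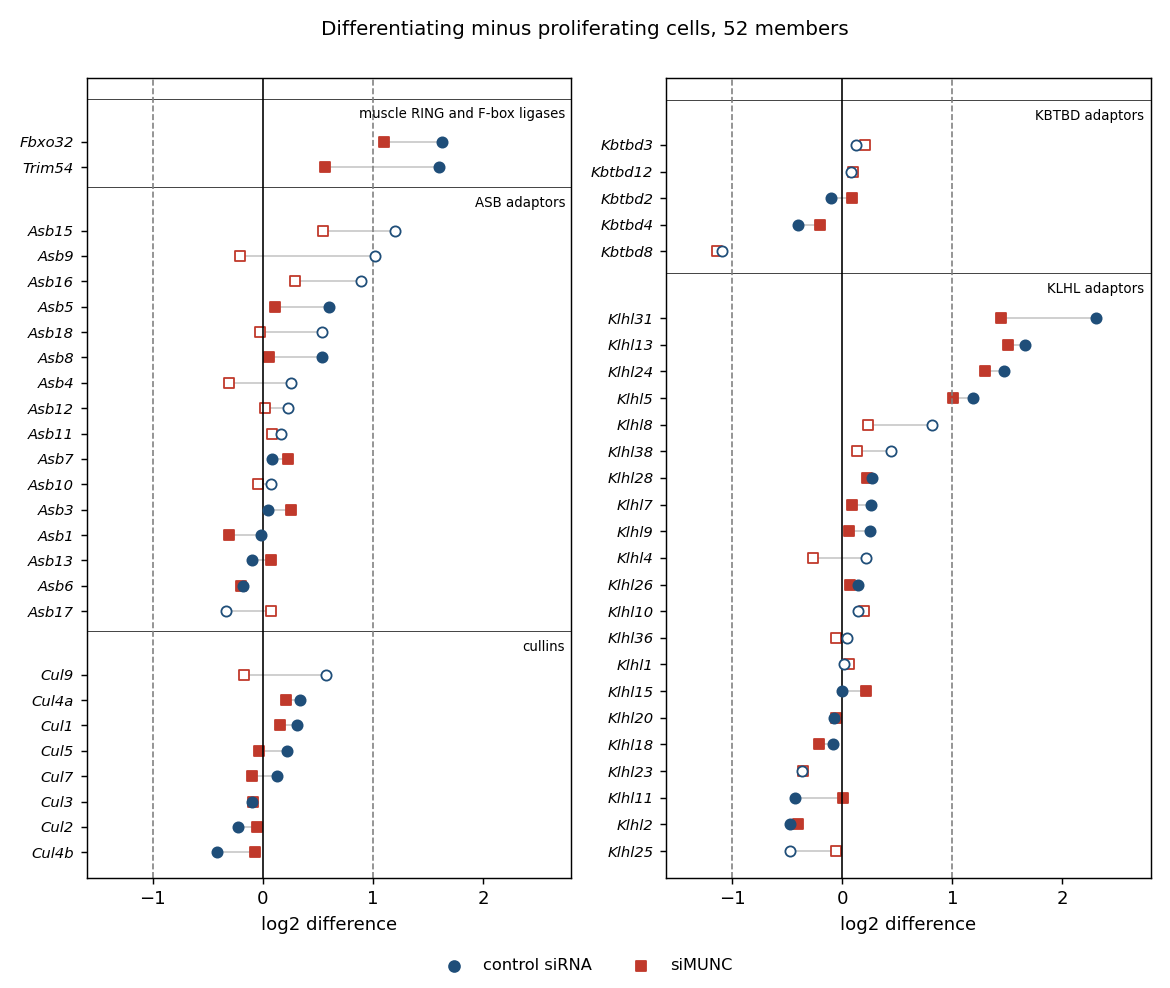
Log2 difference between differentiating and proliferating cells (x axis) for each of the 52 members, by family, with control siRNA (circles) and siMUNC (squares), 1 array per group. Open symbols mark members dim on every array and dashed lines mark 2-fold; the 8 cullins lie between -0.42 and 0.57, while Klhl31 reaches 2.31.

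In siMUNC cells, the question is whether the ligase genes take the same course under the knockdown. Past 2-fold higher were Klhl13, Klhl31, Klhl24, Fbxo32 and Klhl5, and past 2-fold lower was Kbtbd8. Klhl5 and Kbtbd8 came within 2-fold with the offset of 50. The 5 higher are 9.62% of the members, against 2.01% of all genes, and the 1 lower stands against 0.828%. All 6 were also past 2-fold the same way in control cells, where the arrays are different ones. The share of all genes higher in both was 1.51%, and that lower in both 0.74%. The 3 members past 2-fold higher in control cells alone were Trim54, Asb15 and Asb9. All 8 members past 2-fold higher in control cells had a smaller difference in siMUNC cells, from 0.15 less for Klhl13 to 1.23 less for Asb9. So did 479 of the 525 genes past 2-fold higher in control cells (91.2%), and choosing genes by a high control difference favours a smaller one in the other pair of arrays. The median of the 52 was 0.06 in siMUNC cells, beside -0.02 over all genes, and 31 of 52 were above 0, beside 46.2% of all genes. By direction, 26 members were higher on differentiation in both, 12 lower in both, and 14 turned from one to the other (50%, 23.1% and 26.9%), beside 35.4%, 33.2% and 31.3% of all genes.

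**Figure D3:**
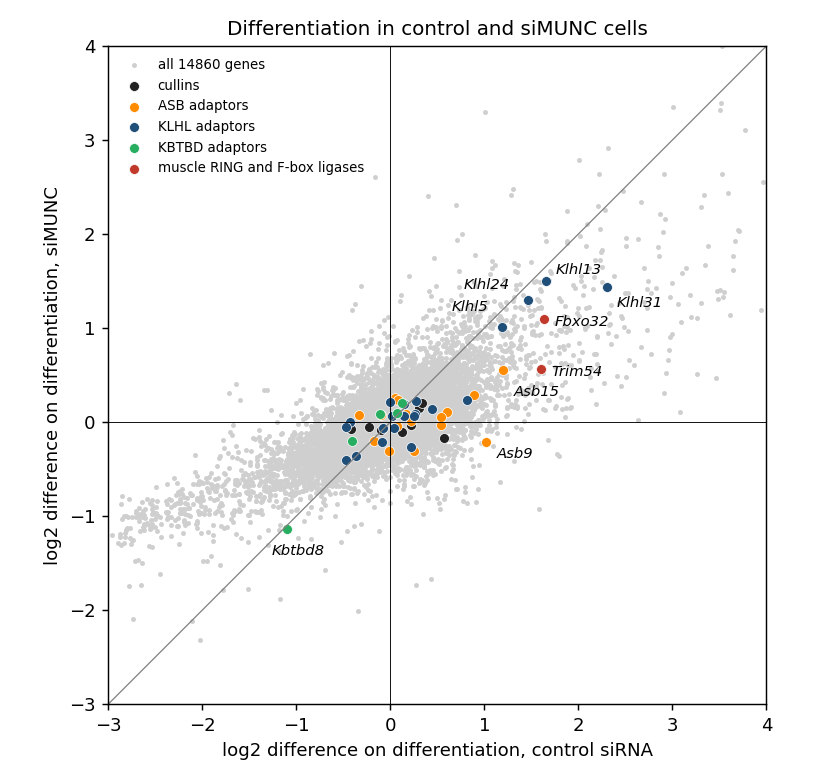
Log2 difference on differentiation in control cells (x axis) and in siMUNC cells (y axis) for all 14860 genes (grey) and the 52 members by family (colours), 1 array per group; 44 genes lie outside the plotted range. The grey diagonal marks equal differences; Klhl13, Klhl24 and Klhl5 lie close to it, and Klhl31, Trim54 and Asb9 lie below it.

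The difference of the differentiation effects, siMUNC minus control, takes all 4 arrays. Past 2-fold lower were Asb9 (-1.23) and Trim54 (-1.03), 2 of 52 members against 1.7% of all genes, and no member was past 2-fold higher, against 2%. Klhl31 followed at -0.87, and its other cluster gave -1.07, which is past 2-fold. With an offset of 50 Trim54 came to -0.93 and Asb9 to -0.66. With the floor Asb9 came to -0.05, which reflects the floors alone, since Asb9 lay under them on every array. Among genes with an array at or above 8.50, Trim54 alone remained past 2-fold lower, against 1.78%. At 1.5-fold 6 members were lower, against 5.68% of all genes. The kelch genes Klhl13 (-0.15), Klhl24 (-0.17) and Klhl5 (-0.18) and Kbtbd8 (-0.05) had nearly the same difference in control and siMUNC cells. Fbxo32 lay between, at -0.53. The members' median was -0.12, beside -0.03 over all genes, and 33 of 52 were below 0, beside 53.8% of all genes.

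A list of 20 adaptors known as enriched in muscle was compared with 29 adaptors of wide expression. Both lists were drawn up with earlier results of these data known, so the contrast between them is not independent of these values. Of the former 12 were measured, 9 of them dim on every array: Asb4, Asb5, Asb8, Asb10, Asb11, Asb12, Asb15, Asb16, Asb18, Klhl31, Klhl38 and Kbtbd12. In control cells 12 of 12 were above 0 on differentiation, with a median of 0.49, and Klhl31 and Asb15 past 2-fold. The share above 0 was 55.9% of all genes and 17 of the 21 dim members (81%), which include the 9 dim genes of this list. Under quantile normalization and cyclic loess 11 of 12 were above 0. In siMUNC cells 9 of 12 were above 0, beside 46.2% of all genes and 11 of the 21 dim members. The median was 0.09, and Klhl31 alone was past 2-fold. In the difference of effects 11 of 12 were below 0, beside 53.8% of all genes and 14 of the 21 dim members. The median was -0.49, and it stayed between -0.58 and -0.30 under the other scalings and backgrounds. The 23 measured adaptors of wide expression had medians of 0.04 in control and 0.08 in siMUNC cells, with Klhl13, Klhl24 and Klhl5 past 2-fold higher and Kbtbd8 past 2-fold lower in both, and -0.05 for the difference of effects. The members of the muscle list past 2-fold were few, and 8 of the other 10 were dim.

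Before differentiation, siMUNC was set against the control siRNA in proliferating cells. No member was past 2-fold in either direction, against 0.236% of all genes higher and 0.35% lower. The 52 differences ran from -0.52 (Klhl31) to 0.66 (Fbxo32), with a median of 0.00, beside 0.04 over all genes. Fbxo32, Asb9 (0.64) and Cul9 (0.64) were the 3 members past 1.5-fold higher, against 1.99% of all genes, and the latter 2 were dim. Asb8 (0.55), Asb4 (0.50), Klhl38 (0.44) and Asb5 (0.42) followed. At the other end, after Klhl31, stood Klhl13 (-0.41), Kbtbd3 (-0.32), Kbtbd2 (-0.29) and Cul1 (-0.28). Of the families, the Asb genes had a median of 0.14 with 11 of 16 above 0, beside 56.8% of all genes. The median of the 21 Klhl genes was 0.01 and turned to -0.03 under cyclic loess, and that of the 8 cullins was -0.05 and turned to 0.01 when the arrays were centred. The 5 Kbtbd genes had a median of -0.16, with 0 of 5 above 0.

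After 3 days of differentiation the same pair of siRNAs was compared. Klhl31 was 2.61-fold lower with siMUNC (10.75 in control and 9.36 in siMUNC cells), the only member past 2-fold, against 1.44% of all genes lower. Its other cluster gave -1.64. No member was past 2-fold higher, against 1.27%. Trim54 was 1.64-fold lower (9.60 and 8.89), and the dim Asb16 (-0.60) and Asb9 (-0.59) were next. These 4 were the members past 1.5-fold lower, against 4.23% of all genes. Klhl13 (-0.57), Klhl8 (-0.53), Klhl4 (-0.48), Asb15 (-0.47), Cul1 (-0.43) and Asb18 (-0.42) followed, of which Klhl13 and Cul1 were not dim. Fbxo32 differed by 0.13, and the highest member was the dim Klhl25 (0.37), whose other cluster gave -0.33. The median of the 52 was -0.05, beside 0.01 over all genes, and 23 of 52 were above 0, beside 52% of all genes. The differentiating control array enters this comparison, the first one and the difference of effects, so their values for a gene are not independent.

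**Figure D4:**
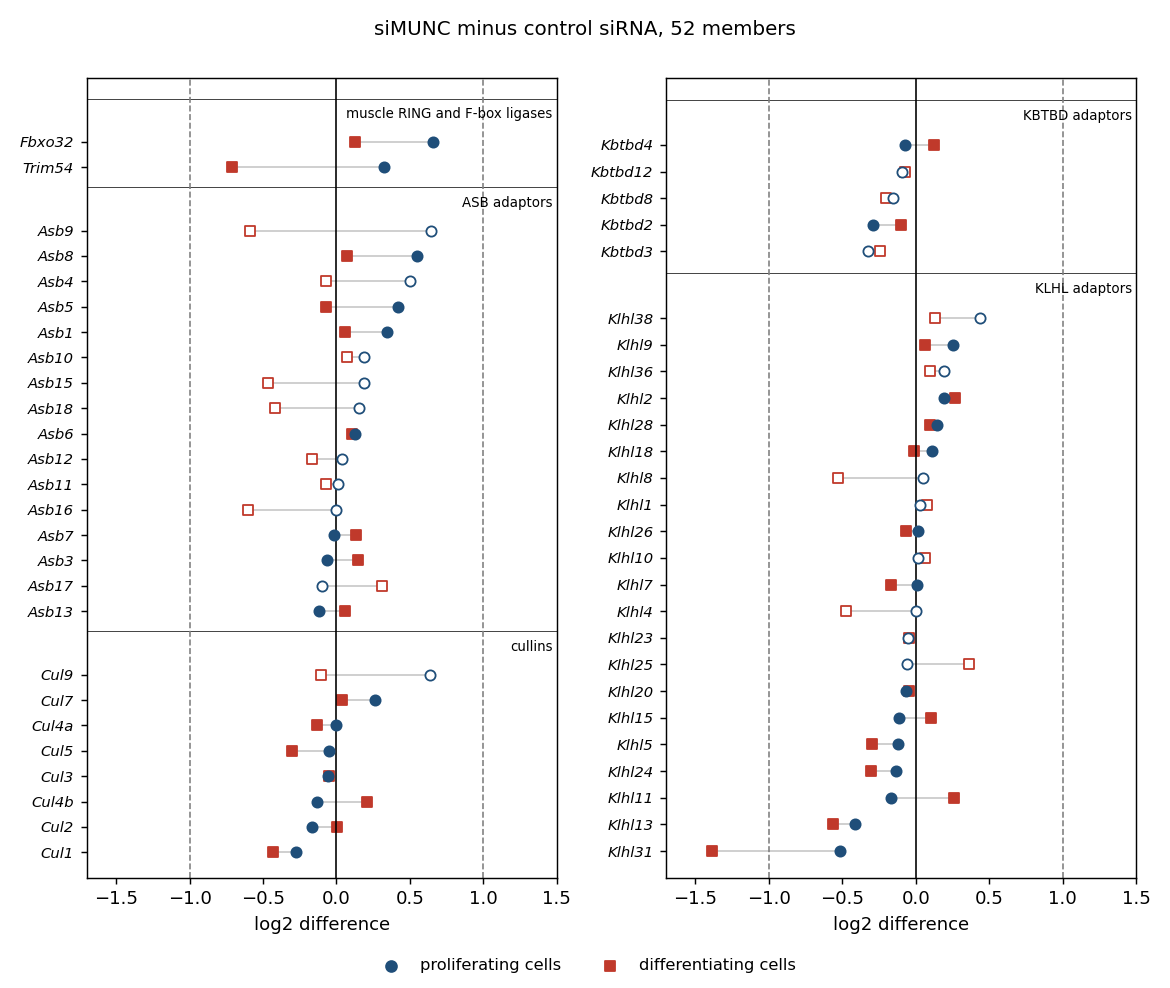
Log2 difference between siMUNC and control siRNA (x axis) for each of the 52 members, by family, in proliferating cells (circles) and differentiating cells (squares), 1 array per group. Open symbols mark members dim on every array and dashed lines mark 2-fold; Klhl31 in differentiating cells (-1.38) is the only value past 2-fold, and Trim54 and Asb9 lie on opposite sides of 0 in the 2 states.

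Most members differed little, as did most of all genes. Of the 52, 39 stayed within 1.5-fold in all 4 pairwise comparisons (75%), beside 76.5% of all genes, while 9 were past 2-fold in at least 1 (17.3%), beside 8.77% of all genes. Among those that stayed within 1.5-fold and were not dim, Klhl20, a Cul3 adaptor of wide expression, spanned 0.12 over the 4 arrays, Asb13 0.12, Klhl26 0.15, Klhl18 0.21 and Klhl15 0.22. By array, 21 members had their highest value in control differentiating cells (40.4%), beside 30.2% of all genes, and 10 in siMUNC differentiating cells (19.2%), beside 20.5%.

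The core partners of the cullins were examined as a list of 19 genes, of which 17 were measured. Cand2, a muscle form of the exchange factor that swaps cullin adaptors, was past 2-fold higher on differentiation in control cells (9.01 to 10.86, a difference of 1.85) and in siMUNC cells (9.09 to 10.21, 1.12), and it was the only partner past 2-fold in any comparison. The RING subunit Rbx1 read 9.48 in both proliferating cultures and 8.62 and 8.94 in control and siMUNC differentiating cells. The other RING subunit, Rnf7, which works with Cul5, read 8.73 in control proliferating cells and 9.29 to 9.55 on the other 3 arrays. The median of the 17 was 0.10 on differentiation in control cells, -0.04 in siMUNC cells (0.00 under quantile normalization), and -0.15 with siMUNC in differentiating cells. The 9 measured subunits of the COP9 signalosome, which removes Nedd8 from cullins, had no member past 2-fold, with medians of -0.14 on differentiation in both. Over all genes 8.77% were past 2-fold in any of the 4 pairwise comparisons.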

How the data were processed

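Each of the 4 groups was measured on 1 Affymetrix array. The deposited table holds 1 log2 value per transcript cluster and array for 23332 clusters, made by the authors in Expression Console (Affymetrix), per the submitters' processing notes. Version, settings and genome build: not given in the sources used here. That the scale is log2 was inferred from the range of values (2.56 to 14.3). Array medians ran from 7.96 to 8.03. Depth is not defined for arrays, and detection calls were not used here.

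Clusters were named from the platform annotation: 14996 had 1 gene, 1019 several and 7317 none in that table. These 14996 cover 14860 genes. For the 135 genes with several clusters the one of highest mean was taken. All 52 members matched a RefSeq gene by Entrez identifier, and no symbol had changed. The values were used as they stand, with no filter, since low members count. Differences are between 2 arrays. Counts of members past 2-fold stand beside the same share over all genes.

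The members and all gene lists were chosen with earlier results of these data known. The genes named are all cullins, Trim54, Fbxo32 and every member past 2-fold in a pairwise comparison; of the other lists, only some of the genes past 2-fold are named. Any further gene named, such as Klhl9, Klhl20, Rbx1, Rnf7, Cbl, Rnf123, Foxo1 and Foxo3, was chosen after its values were seen. Alternatives were median centring, quantile normalization and cyclic loess (limma 3.58.1 in R 4.3.3), an offset of 50, a floor (25th percentile per array), a filter at 8.50 on the brightest array compared, the mean over the clusters of a gene, and a threshold of 1.5-fold. Counting was checked on simulated data. Promoter motifs were searched in Python 3.11.15. A planned comparison of protein sequences was not made.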

Additional observations from a re-analysis of the deposited data

Results flagged for a closer look

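Asb9 was singled out because its siMUNC difference pointed in opposite directions in the 2 states: 0.64 in proliferating and -0.59 in differentiating cells. The rule asked for an absolute log2 difference of at least 0.5 on each side, and of the 17 named members Asb9 alone met it. With 1 array per group the difference between the states was not tested. Asb9 was dim on all 4 arrays (5.35 to 6.37), and an offset of 50 took the values to 0.33 and -0.34, a floor at the 25th percentile to 0.05 and -0.00. The floor values are only differences between the floors of the arrays, because Asb9 lay under the floor on all 4.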

How the results depend on the processing

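No paired analysis was possible because each group has 1 array, and no replicate could be left out for the same reason. Of 573 differences of the 17 named members under an alternative, 561 kept their side of 2-fold, 12 dropped below it and 0 of those past 2-fold changed sign. Most of the differences lay under 2-fold to begin with, among them all those of the cullins, and could not drop below it. Some of the 561 could not have changed at all. The filter at 8.50 leaves a gene's values as they are, and the mean over clusters alters only Klhl31 among the 17. Of 80 counts of members, 70 stayed within 1.5 times. That limit still lets a count lose members, as with Asb15 and Asb9 in control cells. All 35 medians of the 52 members moved by less than 0.1. The medians themselves ran only from -0.12 to 0.14, so this limit is wide and does not show that their size is stable. The count of members lower on differentiation went from 1 to 0 in control and in siMUNC cells with the offset of 50 and with the filter at 8.50, since Kbtbd8 is dim. For the difference of effects, the count lower went from 2 to 0 with the offset, to 1 with the floor and to 1 with the filter, the latter because Asb9 is dim. A threshold of 1.5-fold, which calls more genes by construction, gave 3 members higher with siMUNC in proliferating cells in place of 0, 4 lower in differentiating cells in place of 1, and 6 lower for the difference of effects in place of 2. The 12 that dropped below 2-fold were those of Asb9, Asb15, Kbtbd8, Klhl5 and Trim54 under 1 or more of centring, cyclic loess, the offset and the floor. No setting moved the median of all genes by more than 0.1, but these medians ran only from -0.03 to 0.05. Signal over background limits the 21 dim members, whose differences are the least certain here.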

Other observations

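Other genes of protein turnover were examined as lists. Of 35 measured adaptors outside the Asb, Klhl and Kbtbd families, Lrr1, a Cul2 adaptor of the replication machinery, was 5.78-fold lower in differentiating control cells (8.91 to 6.38) and 2.52-fold lower in siMUNC cells (8.23 to 6.89). Skp2, the F-box protein that targets the cell cycle inhibitor p27, was 2.45-fold lower in control cells and 1.61-fold lower in siMUNC cells. Fbxl22, an F-box protein of the sarcomere, was 2.09-fold higher in control cells from dim values, a difference of 1.06 that came to 0.85 with the offset, and 1.31-fold in siMUNC cells. None of the 35 was past 2-fold with siMUNC in either state, where at most 1.44% of all genes were past it in a given direction. The list's median of 0.00 on differentiation in control cells turned sign with the scaling. The 15 measured other ligases known from muscle had 0 past 2-fold in any comparison, beside 8.77% of all genes in any of the 4 pairwise ones. Cbl was lowest (-0.55) and Rnf123 highest (0.59) on differentiation in control cells. The 28 measured proteasome subunits also had 0 past 2-fold, beside the same 8.77%. On differentiation 20 of 28 were below 0 in control and 25 of 28 in siMUNC cells, with medians of -0.19 and -0.18. Over all 14860 genes 6547 were below 0 in control and 7982 in siMUNC cells, with medians of 0.05 and -0.02. With siMUNC the subunits' medians were -0.09 in proliferating and -0.11 in differentiating cells.

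The 20 measured FoxO and atrophy genes had a median of 0.49 on differentiation in control and 0.50 in siMUNC cells. The stress gene Gadd45a (2.38), Txnip (1.59), the autophagy gene Map1lc3a (1.43) and the dim Mstn (1.08) were past 2-fold higher on differentiation in control cells, and Pdk4 (-1.17) and Fkbp5 (-1.05) past 2-fold lower. Mstn came to 0.98, 0.62 and 0.27 under cyclic loess, the offset and the floor, and Fkbp5 to -0.99 and -0.92 under quantile normalization and the offset. The factors Foxo1 and Foxo3 themselves differed by 0.36 and 0.49 in control and 0.51 and 0.50 in siMUNC cells. With siMUNC, Txnip was past 2-fold higher in proliferating cells (1.14) and Map1lc3a past 2-fold lower in differentiating cells (-1.05). The 17 measured substrates and partners of the adaptors had medians of 0.28 and 0.19 on differentiation in control and siMUNC cells. The sarcomere genes Mybpc1 (4.91), Myom1 (4.59), Tnni2 (4.16), Nrap (2.97) and Mybpc2 (2.94) were past 2-fold higher on differentiation in control cells. All 5, with Myod1, were past 2-fold lower with siMUNC in differentiating cells. Over all genes 3.53% were past 2-fold higher and 4.08% lower on differentiation in control cells. With siMUNC, 0.236% of all genes were past 2-fold higher in proliferating and 1.44% lower in differentiating cells.

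Marker lists of other cell types gave these medians on differentiation in control and siMUNC cells: fibroblast 0.89 and 0.35 (3 of 8 past 2-fold higher in each, Lum, Dpt and Dcn, although Lum in siMUNC cells went from 1.72 to 0.96 with the offset and 0.45 with the floor), macrophage 0.18 and -0.05, adipocyte 0.24 and -0.03, smooth muscle 0.26 and -0.21, and neuron 0.13 and -0.10. With siMUNC in proliferating and differentiating cells the medians were -0.11 and -0.41 for fibroblast (in the latter, Lum -3.55 and Cd34 1.08), 0.15 and -0.10 for macrophage, 0.23 and 0.03 for adipocyte, 0.51 and -0.16 for smooth muscle, and -0.09 and -0.03 for neuron. Tagln (1.53) and Lmod1 (1.09) were past 2-fold higher with siMUNC in proliferating cells, and Nefl (1.16) higher and Lmod1 (-1.03) lower in differentiating cells. With the offset Tagln on differentiation in siMUNC cells and both Lmod1 values with siMUNC (0.68 and -0.75) came below 2-fold. The sign of the fibroblast median in proliferating cells turned with the floor. Past 2-fold on differentiation were also Cd36 (3.52 in control and 4.00 in siMUNC cells), Nefl (-2.87 and -1.19), Stmn2 (-1.46, control), Lmod1 (1.77, control), Lpl (1.19, siMUNC) and Tagln (-1.08, siMUNC). The signs of the macrophage and adipocyte medians in siMUNC cells turned with the floor. Their part in the differences of the ligase genes was not tested.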
